A study of Drosophila melanogaster with 3 samples.

Results

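The 4952 regions described here are the pooled peaks of ranks 5049 to 10000, out of 30000 pooled peaks, in a chromatin immunoprecipitation of the Drosophila protein Ouib. They are the weaker peaks that begin directly below the authors' optimal list of 5048 peaks, which fills ranks 1 to 5048. They were chosen by the authors' pooled signal value, a number per peak of unstated scale, so that signal is given below as a description and not as a finding. The study used whole prepupae of mixed sex from 1 Drosophila melanogaster transgenic line that stably carries CG11762 (the gene ouib) with GFP at its C terminus, and an antibody against GFP. The 3 samples are biological replicates 1, 2 and 3 of this single group, so there is no comparison between conditions. The labels state neither the promoter that drives the fusion nor the age of the animals. Control alignments entered the authors' calls and were not analysed here. Read counts are absent from the lists and the depth of the libraries is unknown.

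Ouib (ouija board) belongs to the ZAD family, zinc-finger proteins whose N-terminal ZAD domain mediates pairing between protein chains. Its known site of action is the prothoracic gland, where larvae make the steroid ecdysone, and its known target is the gene spookier (spok). In a peak caller's ranked list, weaker peaks hold sites of lower signal together with background, and the cut between an accepted list and the rest is set by how well replicates agree. In whole animals, a site used in few cells and a site with little signal in every cell cannot be told apart.

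Members of each kind of place are shown first, since the results below turn on where the summits lie and on their base composition. Each stretch is 100 bases of dm6 centred on the summit (the position of highest signal in the peak), plus strand, from the NCBI copy of the assembly. Capitals mark occurrences of the searched motifs on either strand. The strongest member lay in an intron of tna (chr3L:10843519-10843618), the strongest between genes was near CG6168 (chr3L:11322702-11322801), and the strongest in a coding exon lay in l(3)mbn (chr3L:6124768-6124867).
tna, intron: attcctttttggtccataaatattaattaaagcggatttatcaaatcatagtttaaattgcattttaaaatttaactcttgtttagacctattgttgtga
CG6168, intergenic: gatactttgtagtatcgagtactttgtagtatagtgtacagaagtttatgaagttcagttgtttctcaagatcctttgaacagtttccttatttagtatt
l(3)mbn, coding exon: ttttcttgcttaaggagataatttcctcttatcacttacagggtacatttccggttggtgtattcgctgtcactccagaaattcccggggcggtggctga
The stretches with an intronic and an intergenic summit were 24.0% and 31.0% GC, and the stretch with its summit in a coding exon was 46.0%. These labels give the place of the summit base, and the rest of a stretch can lie elsewhere. The next 4 are the strongest members at promoters with a TATA box (TATAAAA, at NSD, chr3R:27937942-27938041), the DNA replication-related element (TATCGATA, at Rpn12, chr3L:16582786-16582885), a CA repeat (CACACACA, at mamo, chrX:13988924-13989023) and an E-box (CACGTG, at klu, chr3L:11009289-11009388).
NSD: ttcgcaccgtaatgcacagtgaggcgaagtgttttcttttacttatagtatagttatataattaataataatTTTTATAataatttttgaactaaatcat
Rpn12: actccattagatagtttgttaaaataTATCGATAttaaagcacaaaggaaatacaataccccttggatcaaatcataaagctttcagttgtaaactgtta
mamo: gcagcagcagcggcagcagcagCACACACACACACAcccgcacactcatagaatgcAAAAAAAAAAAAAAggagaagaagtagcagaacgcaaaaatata
klu: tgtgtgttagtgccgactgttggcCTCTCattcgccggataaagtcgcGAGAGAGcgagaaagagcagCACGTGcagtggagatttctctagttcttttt
These promoter stretches ran from 24.0% GC at NSD to 50% GC at klu, where the motif of the GAGA factor (GAGAG) occurs as well. Rpn12 encodes a proteasome subunit, and mamo and klu encode zinc-finger transcription factors.

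The pooled signal of the members ran from 61.1 down to 34.2 with a median of 43.6, against a median of 102 in the optimal list. On the authors' −log10 q-value the members ran from 2.97 to 1.03 with a median of 1.67. All but 1 member had the same width of 396 bp, whereas 649 optimal peaks had another width. There was no step at the upper edge. The 5 optimal peaks just above it, nearest to CG10214, CG12985, ath, E(spl)m2-BFM and CG9932, all had a signal of 61.1, and so had the members just inside it, in an intron of tna and near CG6168 and Hex-A, which encodes a hexokinase. At the lower edge, the last 5 members (near CG45428, CG30284, CG43736, Egfrap and Fas3) and the first 5 peaks left out (near Ten-m, CG14073, CanB, Eip75B and Nt5b) all stood at 34.2. No member was in the optimal list, which follows from the rule that chose them.

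The 10 strongest members fell 5 at promoters, 2 in introns and 3 between genes. The promoter members were nearest to eIF4H1, a translation initiation factor gene, Cbs, which encodes cystathionine beta-synthase, Ptp36E, a phosphatase gene, scb, which encodes an integrin alpha subunit, and EndoB. For replicate values, the signal of the overlapping replicate peak with the closest summit was divided by the median of that replicate's best 5048 peaks. The tna member stood at 0.403, 0.685 and 0.652 times the median in replicates 1, 2 and 3. The scb member stood at 0.537, 0.419 and 0.702 times, and the EndoB member at 0.616, 0.661 and 0.470 times. Each of these values lay below the replicate's own median, which the choice of members by pooled signal favours. No replicate was the highest for all 3 members. The Cbs member stood at 0.864 and 0.902 times in replicates 1 and 3, and the list of replicate 2 held no peak there.

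The weaker peaks lay at promoters less often than the optimal peaks and more often than the peaks below them. Of the members, 1399 (28.3%) had their summit within 500 bp of the transcription start site (TSS) of a coding gene. The same held for 33.6% of the optimal peaks and 23.4% of the next 4952 pooled peaks. Introns held 2286 members (46.2%, optimal 44.7%) and intergenic sequence 1158 (23.4%, optimal 20.6%). Coding exons away from promoters held 15 members (0.303%), against 5 optimal peaks (0.0990%) and 67 peaks of the next band (1.35%). There were 34 members in 5' UTRs and 60 (1.21%) in 3' UTRs, where the optimal list had 31 (0.614%). The median distance to a coding TSS was 2082 bp, against 1500 bp for the optimal peaks.

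**Figure D1:**
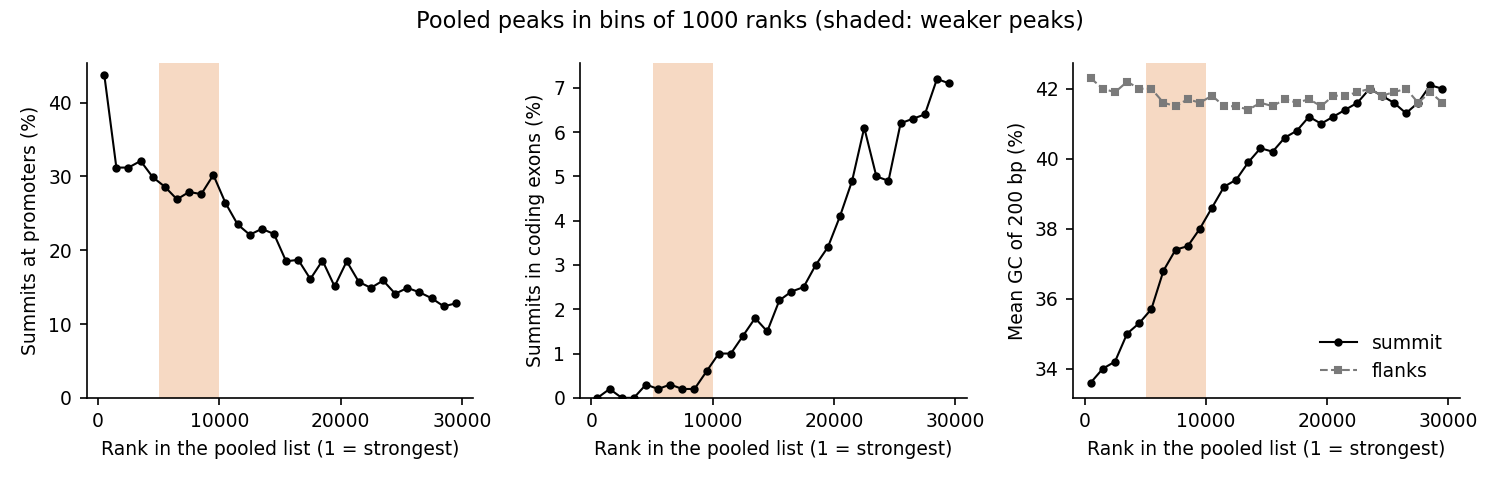
Share of summits at promoters (left, %), share in coding exons (middle, %) and mean GC content of 200 bp (right, %) of the pooled peaks in bins of 1000 ranks, with flanking windows as squares in the right panel and the weaker peaks shaded. Promoter shares within the shading lie between 26.9% and 30.2%, coding-exon shares stay at or below 0.6% and reach 7.20% further down the list, and GC content climbs from 35.7% to 38.0%.

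Within the band the promoter share was flat, at 28.2% at ranks up to the middle of the band and 28.3% beyond it. It then fell from 26.4% at ranks 10001 to 11000 to 12.8% in the last 1000 pooled peaks. The coding-exon share moved the other way, from 0.242% and 0.363% in the same stretches to 7.10% in the last 1000. Most of the change in coding exons along the list therefore came below the members.

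The same comparison was made inside each replicate, where the peaks of ranks 5049 to 10000 of its own list were set against its best 5048. The promoter share was 29.6% ± 2.44 (SD, n = 3) in the bands and 34.4% ± 0.828 in the best peaks, with differences of -3.72, -6.66 and -3.99 percentage points in replicates 1, 2 and 3. The coding-exon share was 0.821% ± 0.176 in the bands and 0.145% ± 0.0412 in the best peaks. Both moved the same way in 3 of 3 replicates. An exact sign-flip permutation test over 3 replicates cannot go below p = 0.25 (two-sided), and it gave 0.25 for each of the 15 measures compared in this way, also after Benjamini-Hochberg adjustment. Each of the 15 differences had the same sign in the 3 replicates, and some were very small, as the values beside each measure show.

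**Figure D2:**
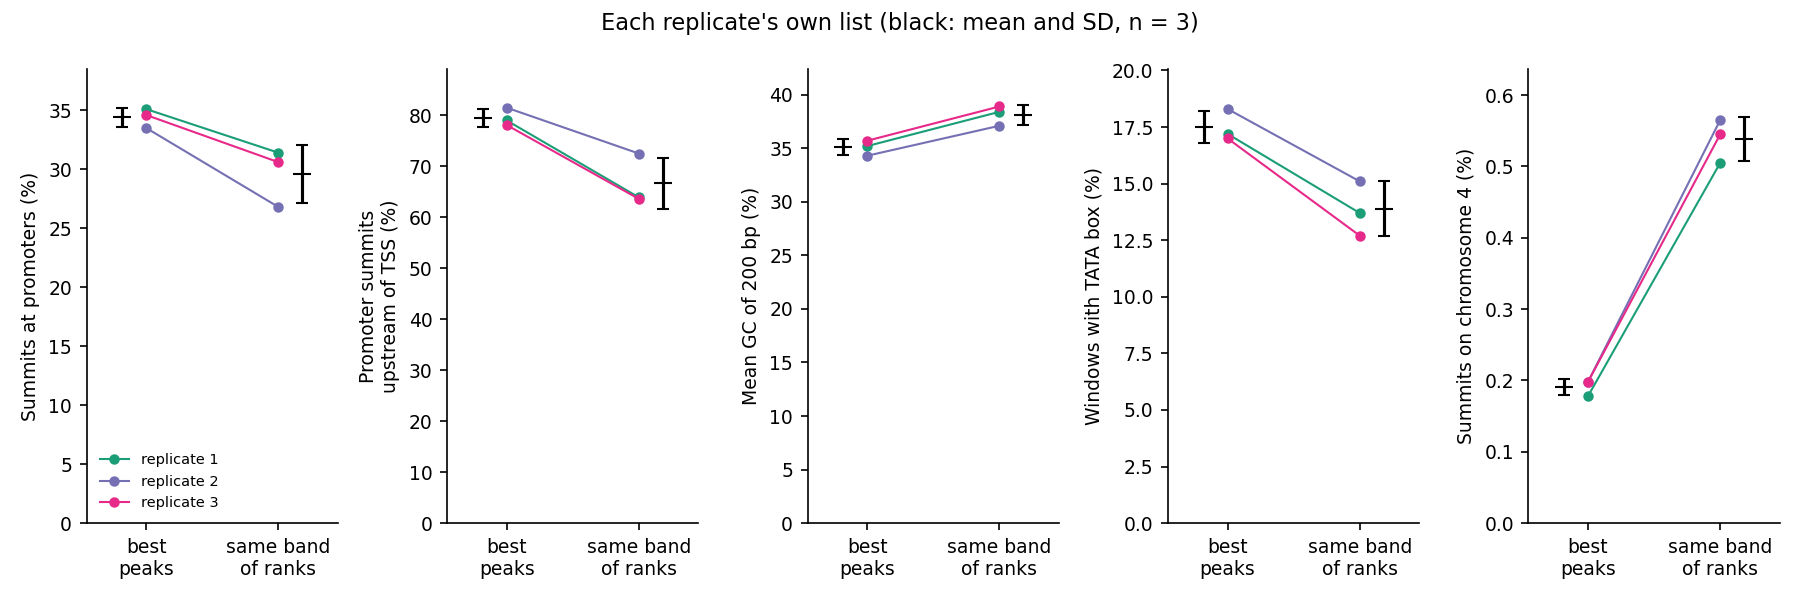
Values in each replicate's own list for its best 5048 peaks and for ranks 5049 to 10000 (lines join 1 replicate; black marks are the mean and SD, n = 3): promoter share, share of promoter summits upstream of the TSS, GC content, share of windows with a TATA box, and share on chromosome 4, all in %. Every line of a panel runs in the same direction, and the chromosome 4 share goes from 0.191% to 0.539% on average.

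At promoters, the weaker summits sat closer to the TSS and more often downstream of it. Their median position was -85 bp (negative is upstream of the TSS), against -132 bp for optimal summits and -52 bp for the next band. Upstream summits made up 69.7% of the members at promoters and 80.5% of the optimal peaks there, and 424 members lay at or downstream of a TSS. The fullest bins of 50 bp held 173 members each, from -150 to -51 bp, and 111 members lay from 0 to 49 bp. The upstream share in the replicates' own lists was 66.7% ± 5.02 (SD, n = 3) in the bands and 79.5% ± 1.80 in the best peaks.

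**Figure D3:**
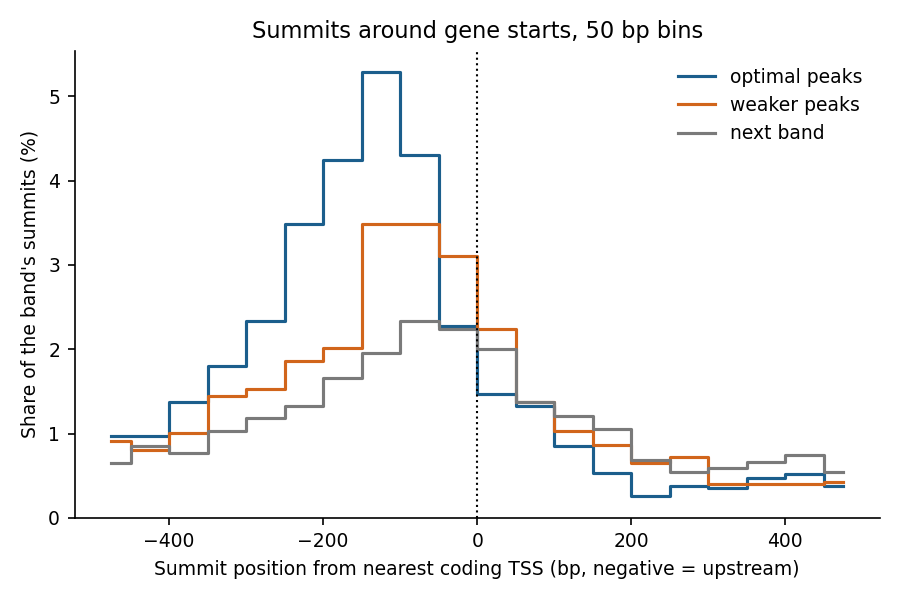
Share of each band's summits (%) in bins of 50 bp around the nearest coding TSS, negative values upstream, for the optimal peaks, the weaker peaks and the next band. The optimal peaks reach 5.29% from -150 to -101 bp, whereas the weaker peaks have a lower plateau of 3.49% from -150 to -51 bp and hold 2.24% just downstream of the TSS, against 1.47% for the optimal peaks.

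Gene pairs that start on opposite strands close together were a smaller part of the weaker promoters. Of the members at promoters, 273 (19.5%) had coding TSSs on both strands within 500 bp of the summit, against 552 (32.6%) of the optimal peaks at promoters and 14.8% in the next band. Within replicates the share was 22.2% ± 1.93 (SD, n = 3) in the bands and 30.7% ± 2.60 in the best peaks, lower in the bands of 3 of 3 replicates.

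The summits of the weaker peaks were AT-rich, less so than those of the optimal peaks. The mean GC content of 200 bp at the summit was 37.1%, against 34.4% for the optimal peaks, 39.5% for the next band and 41.7% for the lowest 10096 pooled peaks. The flanks, centred 1000 bp to each side, were alike in all of these, with 41.7% for the members and 42.1% for the optimal peaks. The difference between summit and flanks was -4.59 percentage points for the members and -7.66 for the optimal peaks. The spread between single members was wide, with an SD of 7.66 percentage points over peaks. Base composition is also a property that sequencing libraries can favour, and its part in the signal was not tested.

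The dip in GC content was narrow and centred on the summit. In bins of 20 bp the members fell to 35.2% at the summit, where the optimal peaks reached 30.8% and the next band 38.9%. At 300 bp to either side the members rose to 44.0% and 44.3%, above their level of 41.9% and 41.8% at 600 bp. The dip was present away from promoters as well. Members in introns had 36.2% at the summit and 41.0% in the flanks (optimal summits 34.2%). Members between genes had 35.9% and 41.3% (optimal summits 34.2%). The gap to the optimal list was wider at promoters, where the members had 39.2% and the optimal peaks 34.6%. In the replicates' own lists GC content was 38.1% ± 0.927 (SD, n = 3) in the bands and 35.1% ± 0.727 in the best peaks, higher by 3.08 ± 0.207 points within replicates.

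**Figure D4:**
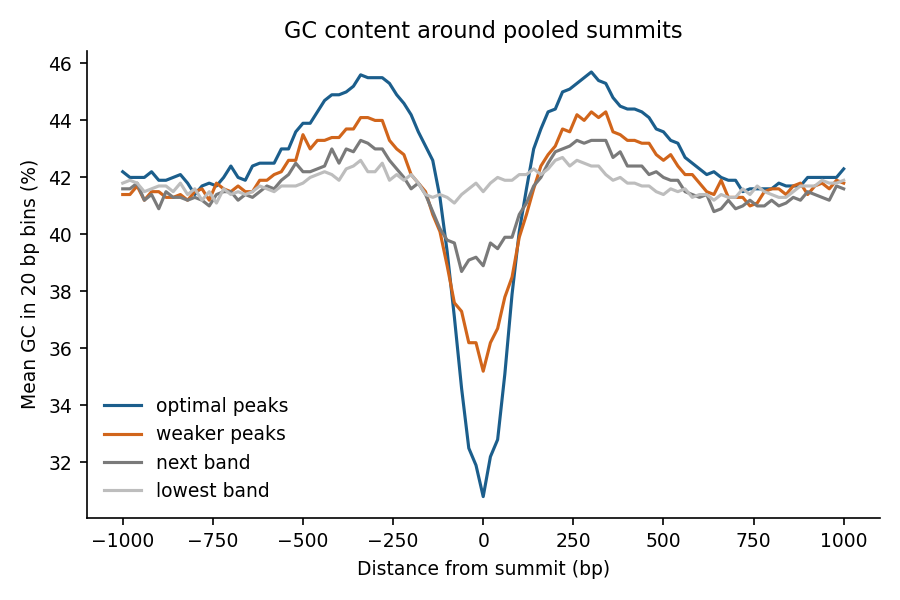
Mean GC content (%) in bins of 20 bp as a function of the distance from the summit (bp) for the optimal peaks, the weaker peaks, the next band and the lowest band. The dip at the summit goes down to 30.8% in the optimal peaks, 35.2% in the weaker peaks and 38.9% in the next band, and is nearly lost in the lowest band at 41.5%.

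Core promoter and insulator motifs were counted on both strands in windows of 200 bp; a match is a string of letters and not a bound site. The TATA box TATAAAA occurred in 763 members (15.4%), against 9.53% of their flanking windows and 18.0% of the optimal windows. Within replicates it was found in 13.9% ± 1.21 (SD, n = 3) of the band windows and 17.5% ± 0.712 of the best windows. A run of 8 A occurred in 19.2% of the members and 13.1% of their flanks, close to the 18.9% of the optimal peaks. Within replicates the differences for this run between band and best peaks were -0.0448, -1.48 and -0.348 percentage points. Both strings consist of A and T, and the windows that hold them are richer in these bases.

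Motifs of proteins that bind near gene starts were rarer. TATCGATA, the element read by Dref, occurred in 71 members (1.43%), the same share as in the optimal list and against 0.505% of flanks. GGTCACAC, known as the motif of the ZAD protein M1BP, occurred in 48 members (0.969%, optimal 1.03%, flanks 0.454%). The E-box CACGTG occurred in 89 members (1.80%), below the 2.29% of their flanks. In the pooled list these shares were close to those of the optimal peaks. Within replicates the band lay above the best peaks by 0.0905, 0.129 and 0.166 percentage points for TATCGATA and by 0.224, 0.0421 and 0.342 points for GGTCACAC. Within replicates the E-box was found in 2.09% ± 0.0709 (SD, n = 3) of the band windows and 1.55% ± 0.150 of the best windows.

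Repeats of GA and CA were more frequent in the weaker peaks than in the optimal list, as they were in the bands below. GAGAG, the core of the GAGA factor's motif, occurred in 1252 members (25.3%), against 21.7% of the optimal peaks and 22.0% of the members' flanks. CACACACA occurred in 257 members (5.19%), against 157 optimal peaks (3.11%), with 4.79% in the members' flanks and 4.96% in those of the optimal peaks. In the next band the shares were 24.3% for GAGAG and 5.65% for CACACACA, and in the lowest band 23.4% and 5.45%. The higher shares are thus not particular to the members. Within replicates, CACACACA was found in 5.50% ± 0.858 (SD, n = 3) of the bands and 3.69% ± 0.891 of the best peaks, higher by 1.59, 1.93 and 1.90 points. GAGAG was higher in the bands by 3.25, 3.22 and 2.13 points. Both strings contain more G and C than the average summit, and GC content differed between the same sets. Soft-masked repeats covered 21.5% of the members' windows, against 16.9% of their flanks and 23.1% of the optimal windows. The masked share within replicates was 20.5% ± 0.513 (SD, n = 3) in the bands and 22.7% ± 0.218 in the best peaks. There were 14 members in an annotated transposable element.

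Some of the weaker peaks lay directly beside stronger ones. The interval of 334 members (6.74%) overlapped that of an optimal peak, and the other 4618 (93.3%) stood alone. No member summit lay closer than 199 bp to an optimal summit, and 246 members lay over 190 and up to 210 bp from one. The same shortest spacing of 199 bp was found in every band of the pooled list, the optimal peaks among themselves included. Between 300 and 400 bp there were 6 members. The overlapped optimal peaks had a median of 2.24 times the signal of the member, with a range of 1.04 to 15.5 times.

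**Figure D5:**
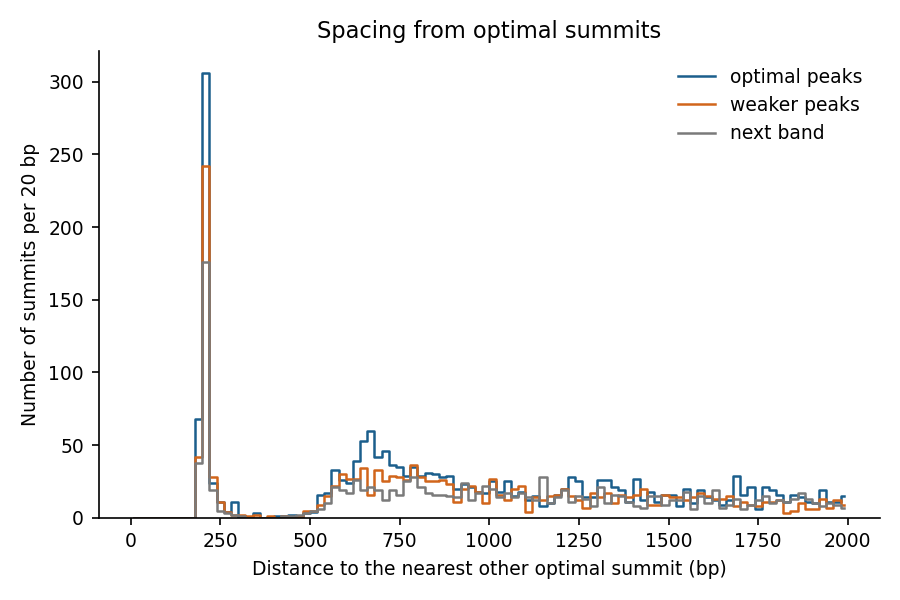
Number of summits per 20 bp of distance to the nearest other optimal summit (bp), for the optimal peaks, the weaker peaks and the next band. Each shows a sharp spike near 200 bp, which holds 246 weaker peaks over 190 to 210 bp, then an almost empty stretch, and a broad rise beyond 500 bp.

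The members beside an optimal peak differed in make-up from those standing alone. Of the former 36.5% were at promoters and 31.7% held GAGAG, against 27.7% and 24.8% of the latter. Their GC content was 39.6%, against 36.9% for those standing alone, so the dip in GC content was smaller in peaks that flank a stronger one. Over a wider range, 913 members (18.4%) lay within 1000 bp of an optimal summit, where 23.3% of the optimal peaks had another optimal summit. The median distance to the nearest optimal summit was 4372 bp for the members and 3120 bp among the optimal peaks. Members were also near each other, with 866 (17.5%) within 1000 bp of another member. Inside replicates, 18.4% ± 0.925 (SD, n = 3) of the band and 24.6% ± 0.693 of the best peaks had a best summit this close.

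Most of the weaker peaks had a counterpart in every replicate's list. A peak of replicate 1 overlapped 95.7% of the members by 1 bp or more, a peak of replicate 2 96.4% and a peak of replicate 3 92.0%. All 3 replicates had one at 4189 members (84.6%), 2 at 740, 1 at 23 and none at 0. Across the pooled list the share found in all 3 went from 99.1% of the optimal peaks through the members to 49.4%, 24.1% and 10.5% in the bands below. The pooled signal that chose the members came from these same replicates, and each replicate list held 30000 peaks with background included, so these shares are a description with no test. With a replicate summit required within 100 bp, 50.8% of the members were found in all 3.

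Few of the weaker peaks were strong in every replicate. That, and the normalized medians below, largely follow from the rule, since the pooled signal came from the same replicates. Replicate 1 had 19.1% of the members among its best 5048 peaks, replicate 2 17.0% and replicate 3 20.3%. There were 2906 members in the best peaks of no replicate, 1527 in those of 1, 291 in those of 2 and 228 in those of all 3. Of these 228, 220 overlapped an optimal peak, so that the replicate peak counted could be that of the stronger neighbour, and 8 stood alone. The median normalized signal of the members was 0.444, 0.407 and 0.433 times the median of the best peaks in replicates 1, 2 and 3.

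The 10 members with the best worst rank over the replicates all flanked an optimal summit, 199 to 216 bp away. They lay in introns of for, chif, CG42327, dpp and osa, and at promoters of PIG-F, papi, CG13501, CG31808 and Nubp2. dpp encodes a bone morphogenetic protein ligand, and for encodes a cGMP-dependent protein kinase. At dpp the closest replicate peaks reached 0.651, 4.75 and 4.85 times the median. In the intron of for they reached 6.04, 1.19 and 7.14 times. The values at each of these members spread over several fold. At each, the closest peak was the best overlapping peak in some replicates and another peak in others. At chif the closest peaks had ranks 3373, 73 and 8861, and the best overlapping peaks 39, 73 and 41. The spread can therefore not be read as a difference between replicates, and a strong replicate peak could be that of the optimal neighbour. At dpp the list of replicate 1 held a second overlapping peak, of rank 176.

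Among the members standing alone with the best worst ranks, some had even values over the replicates and others did not. The best worst rank among them was that of the summit 297 bp upstream of Golgin245, which encodes a Golgi protein, at 1.01, 0.963 and 1.40 times the median. Next came the summit 55 bp upstream of CG5439, at 0.831, 0.515 and 0.337 times, and one 825 bp upstream of NimC3, at 0.246, 0.751 and 0.917 times. The intron of Tet, which encodes a dioxygenase of the TET family, had values close together, at 0.725, 0.778 and 0.761 times. The summit 11 bp upstream of eEF5, a translation factor gene, stood at 0.656, 0.672 and 0.767 times. These values, of the closest replicate peak, thus lay close together at Tet and eEF5 and far apart at CG5439 and NimC3. At CG5439 the best overlapping peaks had ranks 3381, 2614 and 3131, while the closest peaks of replicates 2 and 3 had ranks 6024 and 12068. At NimC3 the best overlapping peak of replicate 1 had rank 3935 and the closest had rank 19059. The spread at these 2 members therefore depends on which overlapping peak is taken. Over all members standing alone, the highest values were 1.65, 0.981 and 1.40 times the median in replicates 1, 2 and 3.

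A few members rested on 1 replicate. The 23 members missing from the lists of 2 replicates included a summit at the start of CG42671, seen in replicate 3 at rank 2703 and 0.960 times the median. They also included summits in the intron of dar1 and near CG12016, seen in replicate 2 at 0.776 and 0.748 times. The summits at Svil, whose product is a supervillin of the actin cytoskeleton, and in Mmp2, a matrix metalloprotease gene, were seen in replicate 1 at 0.770 and 0.724 times. These 5 were named for the best ranks among the 23 in the list that shows them. Their values above the members' median in that replicate follow from this choice. The other lists hold no peak there.

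Of 13945 protein-coding genes, 2010 (14.4%) had a member summit within 1000 bp of a TSS, against 2517 (18.0%) with an optimal summit and 1704 (12.2%) with a summit of the next band. The members added 1441 genes (10.3%) that had no optimal summit there. The 569 genes with both were 28.3% of those with a member and 22.6% of those with an optimal summit. In the replicates' own bands, 15.4% ± 0.683 (SD, n = 3) of the genes had a summit. The counts of the gene lists below are to be read against these shares, and no test of a list was made.

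The weaker peaks added no gene of ecdysone synthesis, the pathway of Ouib's known target. They added 10.3% of all coding genes, and a list of 10 genes is too short to tell none from that share. Of the 10 genes 1 (10%, all coding genes 14.4%) had a member. This was shd (FBgn0003388), which encodes the enzyme of the last step and already had an optimal summit. That member (chr3L:14613809-14614204) lay 451 bp from the TSS beside the optimal peak, at 0.209, 0.363 and 1.11 times the replicate median. Replicate 3 was high there and the others low. The nearest member was 524 kb from the TSS of spok, the cytochrome P450 gene on which Ouib is known to act, and 1199 kb from that of nvd, which encodes a Rieske oxygenase. Optimal summits were farther still from these 2 genes, at 891 kb and 1446 kb. Gaps of this size were not particular to them. The gene rl lay 3171 kb from a member and 4710 kb from an optimal summit. RpL15 lay 4388 kb from an optimal summit, yet had a member 13 bp from its TSS. How well reads align around spok and nvd was not tested, so these distances do not show that Ouib is absent from either gene. The nearest member was 2.87 kb away for dib, 5.33 kb for sad and 6.70 kb for phtm, which encode the hydroxylases of the later steps. It was 4.95 kb away for sro, a dehydrogenase gene. It was 11.5 kb away for spo, 11.8 kb for Cyp6t3 and 14.8 kb for GstE14. The tagged gene ouib (FBgn0037618, chr3R:8725479-8726730) had its nearest member 12.6 kb away.

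Ecdysone response genes, which carry or follow the hormone's signal, often had a weaker peak. Of 35 genes, 18 (51.4%) had a member within 1000 bp of a TSS, against 14.4% of all coding genes, and 19 had an optimal summit. The replicates' own bands gave 18, 17 and 19 of 35. In the next band 13 of the 35 (37.1%) had a summit, against 12.2% of all coding genes. A high share is thus not particular to the members. These genes have a median of 2 TSSs, against 1 for all coding genes, and many are long, and the part of either in the count was not tested. The 12 genes with both include the receptor genes EcR and usp and the early genes br, Eip74EF, Eip75B and Eip93F, a choice of names made after their values were seen. The 6 genes added were Hr3, Hr4 and Hr39, which encode nuclear receptors, Oatp74D, which encodes the importer of ecdysone (also called EcI), and the caspase genes Drice and Dronc.

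The members of highest signal on this list were at Oatp74D, Alh, Eip63F-1 and Hr3. The Oatp74D member (chr3L:17486784-17487179) lay 136 bp from the TSS at 0.289, 0.653 and 0.671 times the replicate median. The Hr3 member lay 338 bp from the TSS at 0.683, 0.593 and 0.372 times, and the member of Eip63F-1, a calcium-binding protein gene, 290 bp from the TSS at 0.469, 0.627 and 0.366 times. None of these is above the replicate median of the best peaks, which the choice of members by pooled signal favours. A different replicate is lowest at Oatp74D than at Hr3 and Eip63F-1. Alh, which encodes a PHD-finger protein, had a member beside an optimal peak.

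Several of these loci held many weaker summits across the gene body. EcR (chr2R:6087873-6169087) held 12 members, 1000 bp on either side included, beside 4 optimal summits. Eip75B, a nuclear receptor gene of 114 kb, held 15 beside 11, and Eip74EF, an ETS factor gene, 11 beside 6. ftz-f1, the competence factor of the prepupal stage, held 8 beside 7 optimal summits but had no member within 1000 bp of a TSS. At each of these 4 loci, chosen as examples after their values were seen, the weaker summits outnumbered the optimal ones. Other genes of the list were level or went the other way. Hr4 held 7 beside 7 and Hr3 5 beside 5, while tai held 9 beside 10 and E23 2 beside 4.

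Regulators of the prothoracic gland gave 15 of 36 genes (41.7%, all coding genes 14.4%) with a member and 13 with an optimal summit, with 13, 14 and 14 in the replicates' own bands. The next band had a summit at 12 of the 36 (33.3%, all coding genes 12.2%), so this too is not particular to the members. The 7 genes added were Hr3, Hr4, ash2, mirr, mld, tim and vvl. cnc, the gene of the Nrf2 homologue, had the strongest member, 517 bp from a TSS at 0.844, 0.240 and 0.508 times the replicate median. ash2, which encodes a subunit of histone methyltransferase complexes, had one 66 bp from a TSS at 0.446, 0.480 and 0.927 times, and its nearest optimal summit was 35.9 kb away. This list, too, has a median of 2 TSSs per gene, and the part of that was not tested. The lists share genes, and EcR, Eip75B, br, Hr3, Hr4 and ftz-f1 are on both. mld and vvl, which encode a zinc-finger and a POU-domain factor known to act on ecdysone synthesis genes, had members 123 bp and 137 bp from a TSS. These names were added with the values known.

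Weaker peaks lay at many of the ribosomal protein genes that had no optimal peak. Of 91 genes, 25 (27.5%) had a member and 48 (52.7%) an optimal summit, and the members added 19, which left 24 with neither. In the next band 8 genes (8.79%) had a summit, below the 12.2% of all coding genes. In the replicates' own bands the counts were 32, 18 and 23 genes, or 26.7% ± 7.80 (SD, n = 3), and in their best peaks 52.4% ± 1.68. Replicate 2 had the fewest in its band. The summits were close to the starts. The median distance of the counted summit was 44 bp for the 25 genes with a member, against 246 bp over all genes with one, and 17 of the 25 (68.0%) lay within 100 bp, against 24.0% of all genes with a member. Optimal summits at ribosomal protein genes were as close or closer, with a median of 34 bp and 41 of 48 (85.4%) within 100 bp.

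RpL12 (FBgn0034968) had the strongest member of the list, 22 bp from its TSS at 0.591, 0.447 and 0.930 times the replicate median. RpL37A had one 3 bp from the TSS at 0.658, 0.405 and 0.602 times, and RpL10 one 10 bp away at 0.657, 0.353 and 0.701 times. Replicate 2 was the lowest in all 3. RpS14a had one 60 bp from the TSS at 0.445, 0.573 and 0.455 times, with replicate 2 the highest. The members reached ribosomal protein genes far from any optimal peak. RpL15 (chr3L:27267255-27268445) had a member 13 bp from its TSS at 0.525, 0.670 and 0.434 times, with the nearest optimal summit 4388 kb away. RpL38 had one 4 bp from its TSS at 0.513, 0.645 and 0.264 times, with the nearest optimal summit 1266 kb away. Both names were chosen after seeing these values. RpS14a and RpS14b are near-identical neighbouring copies, and how their reads were placed is not known.

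Mitochondrial ribosomal protein genes had members at 8 of 73 (11%) and optimal summits at 18. Their strongest members were at mRpL17, mRpL54, mRpS25 and mRpL32, and that of mRpL54 stood at 0.748, 0.454 and 0.588 times the replicate median. The replicates' own bands gave 18, 11 and 12 genes. The share lay below the 14.4% of all coding genes in the pooled band. In the replicates' own bands it was 24.7%, 15.1% and 16.4%, against 16.0%, 14.7% and 15.7% of all coding genes.

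In the pooled list, genes of chromatin architecture had weaker peaks about as often as all coding genes. Of 14 genes, 2 (14.3%, all coding genes 14.4%) had a member and 7 (50%, all 18.0%) an optimal summit. Those with a member were Trl, which encodes the GAGA factor, and pita, a ZAD insulator protein gene, and pita was the gene added. The replicates' own bands held 2, 4 and 4 of the 14 genes, or 14.3%, 28.6% and 28.6%. All coding genes stood at 16.0%, 14.7% and 15.7% there, so 2 of the 3 replicates lay above that share. Of 20 heat shock genes 7 had an optimal summit and 3 (15%) a member, Hsc70-3, Hsp23 and Hsp67Ba, all of them added. Hsc70-3, which encodes the chaperone BiP of the endoplasmic reticulum, stood at 0.284, 0.272 and 0.995 times the replicate median, high in replicate 3 alone. Of 16 ZAD genes, pita, hang and Meics had a member and no optimal summit, 4 others had an optimal summit and 9 neither. The pita member lay 72 bp from a TSS (chr2R:23551425-23551820) at 0.689, 0.237 and 0.543 times the median.

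Genes of the cuticle, most of which are expressed in the epidermis, had a member at 8 of 98 genes (8.16%) and an optimal summit at 2, and none of the 8 genes had both. The highest was at Cpr73D, 253 bp from a TSS, at 0.547, 0.589 and 0.308 times the replicate median, followed by those at Cpr47Ec, Cpr49Ah and Cpr64Aa, 722 to 876 bp from a TSS. The replicates' own bands held 4, 10 and 4 of these genes and their best peaks 4, 3 and 2, so the band was above the best peaks in 2 replicates and level in the other. The share stayed below that of all coding genes in the pooled list.

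Markers of single tissues were taken as gene lists, since peaks hold no expression, and are to be read against 14.4% of all coding genes. The lists are too short to tell counts this small from that share or from each other. In the next band the glue, muscle, neuronal, germline and fat body lists had 0, 4, 4, 0 and 3 genes with a summit. The 18 glue genes of the salivary gland had none, in the pool or in any replicate's band. The 20 muscle genes had none, where 3 had an optimal summit, and the replicates' own bands held 3, 0 and 2. Of 20 neuronal genes, Syt1, which encodes a synaptic vesicle calcium sensor, and fne, which encodes an RNA-binding protein, had a member. Of 22 testis and germline genes, piwi had one, at 0.310, 0.665 and 0.281 times the replicate median. Of 16 fat body genes 4 (25%) had one, as many as had an optimal summit, bmm and FASN1 beside an optimal peak and Lsd-1 and apolpp without an optimal summit at the TSS. The replicates' own bands held 3, 3 and 0 of the fat body genes. Lsd-1, which encodes a perilipin of lipid droplets, had its member 31 bp from the TSS at 0.511, 0.467 and 0.631 times.

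Genes for tRNA had a weaker summit within 1000 bp more often than an optimal one in the pooled list. Of 290 genes, 54 (18.6%) had a member within 1000 bp, 29 (10%) an optimal summit and 40 (13.8%) a summit of the next band, and 47 were added. Of all coding genes, 14.4% had a member, 18.0% an optimal summit and 12.2% a summit of the next band, and 10.3% were added. The tRNA genes are clustered, and the 54 shared 33 summits, so they are not independent. In the replicates' own bands the counts were 47, 35 and 26 genes and in the best peaks 38, 21 and 51, so replicate 3 went the other way. The member of highest signal lay near tRNA:Ala-TGC-2-1 and tRNA:Ala-TGC-1-1 at 0.802, 0.218 and 1.03 times the replicate median. The next lay near tRNA:Ser-GCT-2-3, at 0.701, 0.565 and 0.337 times, and another near tRNA:Gly-GCC-1-5 and tRNA:Gly-GCC-1-6, at 0.596, 0.490 and 0.599 times.

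Counted over whole genes, 2990 coding genes had a member, counting 1000 bp on either side, 145 had 5 or more and 22 had 10 or more. kirre, which encodes an adhesion protein of muscle founder cells, had the most with 18 members in a gene that spans from 2740384 to 3134532 on chromosome X, beside 19 optimal summits, and none of these members was within 1000 bp of a TSS. Tlk, which encodes a tousled-like kinase, had 16 beside 10 optimal summits. Eip75B, px and CG43658 had 15 each, beside 11, 5 and 14 optimal summits. Long genes hold more positions, and no adjustment for length was made.

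The small chromosome 4, most of which is packed as heterochromatin with active genes in it, came into the list below the cut. It held 29 members (0.586%) against 8 optimal peaks (0.158%), with 24 in the next band, and it makes up 1.01% of the length of the main chromosomes. Of the 29, 19 (65.5%) lay at promoters, and 23 were found in all 3 replicates. The promoter members were nearest to 17 genes, among them ey, the eye selector gene, pan and lgs, which act in Wnt signalling, pho, a Polycomb-group gene, and CaMKI and CaMKII, which encode calmodulin-dependent kinases. These names, too, were picked with the values known. In each replicate the share on chromosome 4 rose from the best peaks (0.178%, 0.198% and 0.198%) to the band (0.505%, 0.565% and 0.545%). The mean GC content of the 29 summits was 35.5%.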

How the data were processed

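Anti-GFP ChIP-seq peak lists of 3 biological replicates of whole Ouib-GFP prepupae were analysed. Per the file lists the authors deposited, peaks were called against a control in each replicate and in the pool of all 3, and an irreproducible discovery rate threshold gave the optimal list. Which aligner and caller were used is not given in the sources used here. The authors' deposited signal value per peak has no stated scale, and the authors' deposited −log10 q-value was read from the layout of the lists. Depth is unknown, since no counts are given. No more than 1 interval was identical between 2 replicates, so they were counted as separate samples. Lists on dm3 were not used here.

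Pooled dm6 peaks were sorted by signal and ranks 5049 to 10000 kept. Summits were annotated with Ensembl genes of release 115 (BDGP6.54), with promoters (500 bp) taking precedence, then coding exons, UTRs and introns, and sequence came from the NCBI copy of the assembly. Windows were 200 bp, with flanks 1000 bp away. Replicate bands were compared with an exact sign-flip permutation test over 3 replicates, adjusted by Benjamini-Hochberg over 15 measures. The rank of a member in a replicate is that of its best overlapping peak.

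Genes and peaks were named by rule: the members at both edges, the best and the least shared in replicates, all ecdysone synthesis genes, the 4 strongest of each other list and the 5 genes with most members. All other genes, those at members standing alone included, were picked with their values known. The members and the lists were chosen with earlier results of these data known. Tools were pandas 2.3.3, numpy 2.4.6, matplotlib 3.10.9 and scipy 1.17.1 under Python 3.11.15. On 4952 simulated positions with 30% at promoters, 30.0% were measured there.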

Additional observations from a re-analysis of the deposited data

How the results depend on the processing

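The level of several shares moved with the window or distance chosen. The promoter share of the members was 20.2% with a window of 250 bp and 36.9% with 1000 bp. Coding exons held 0.868% when they were assigned before promoters. GC content was 36.1% in windows of 100 bp and 39.2% in windows of 400 bp. The TATA box share was 8.02% and 24.5% in the same windows, and the masked share was 20.2% at 400 bp. Members close to an optimal summit made up 6.93% at 500 bp, 53.3% at 5000 bp, and 19.7% and 17.2% in the upper and lower part of the band by rank. They made up 12.5% among members that overlap no optimal peak, an alternative chosen after seeing the data. Found in all 3 replicates were 91.6% and 77.5% of those parts, 72.6% when the overlap had to span at least 50% of the member, and 50.8% with a summit within 100 bp. With a replicate left out, 88.0% to 92.1% were found in the others, since fewer lists had to agree. Genes added were 792 and 738 in those parts, which hold fewer peaks, and 2202 with a window of 5000 bp. Of 84 alternative values, 61 stayed within the spread between replicates (for counts, within 1.5 times). No paired analysis was possible because there is 1 group and no second group shares its replicate numbers. The comparison of band and best peaks inside each replicate is paired by construction.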
